A study of Mus musculus with 14 samples.

Results

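Circulating tumor cells (CTC) sorted from mice that had been injected with the melanoma line B16F10 were set against cells of the same line taken from culture. The cells were selected by the class given in the deposited cell table, and 43 of the series' 648 cells were CTC and 22 were culture cells. The CTC came from 5 samples of female C57BL/6J mice of 6 to 8 weeks that had received fluorescently labelled B16F10 cells and no drug. These samples were C1L with 3 blood cells, C1N with 5 blood cells and 1 lung cell, C1R with 11 blood and 4 lung cells, C2R with 4 blood and 10 lung cells, and C3R with 5 blood cells. The culture is 1 sample, grown as an adherent layer with no host, and its sample label calls the cells CTC while the cell table calls them B16F10 controls. White blood cells (WBC) of the same 5 samples (44 cells) and of naive C57BL/6J mice (21 cells) served as the background. Also set beside them were PltLike control cells (24 cells) of a sample grouped as naive, and DP cells of tumor-injected samples. The mice of these samples, and the naive mice of the WBC, were 6 to 8 weeks old too. The labels do not say whether a sample is 1 mouse or a pool of mice, nor the day of collection.

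B16F10 is a line of mouse melanoma that was selected for its capacity to colonise the lung. Its genome is aneuploid, so whole chromosomes and long segments are present in more or fewer copies than in a normal cell. Chromosome segregation errors add to this during growth, and a cell that has lost or gained a chromosome passes that state to its descendants, so that cells which share several such changes form a recognisable group. Each cell's genome had been copied by MALBAC, a method that amplifies the DNA of 1 cell in quasi-linear cycles before sequencing.

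The deposited values are a normalised coverage signal per genome bin. Here they were put on the log2 scale and each cell was centred on the median of its bins on chromosomes 1 to 19, so that every level below is relative to the rest of that cell's genome and is not a number of copies. If 4 copies were the common state, 1 copy fewer would give -0.42 and 1 copy more 0.32 on this scale. After bins at the table's ceiling were left out, 4399 bins remained, 4143 autosomal and 256 on X, with a median width of 537 kb. Read counts were not part of the values used, so depth is unknown and the median absolute difference between neighbouring bins stood in for precision. It had medians of 0.147 to 0.185 in the CTC samples and 0.168 in the culture. The autosomal median of the deposited signal was 3.67 in CTC and 3.68 in the culture (medians over cells), and 1.81 in naive WBC.

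The CTC showed the coverage profile of the line. On a score that is 1 at the mean culture profile and 0 at that of naive WBC, the 43 CTC lay between 0.83 and 1.06 and the 22 culture cells between 0.88 and 1.11. WBC of the same mice lay between -0.086 and 0.078. The landmarks of the line were present on both sides. Chromosome 6 stood at 0.57 ± 0.054 in CTC (SD, n = 5 samples) and 0.57 in the culture, and chromosome 14 at -0.36 ± 0.031 in CTC and -0.40 in the culture. Chromosome 18 stood at -0.34 ± 0.070 in CTC and -0.38 in the culture. The Y bins were at most 0.0075 of the autosomal median in CTC and 0.0047 in the culture, with medians of 0.0021 and 0.0018. They were low in host cells too, so a low Y is not particular to the line. Naive WBC had a median of 0.0094 and at most 0.030. WBC of the 5 samples had a median of 0.0085 and at most 0.22.

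The first comparison asked whether chromosomes shifted between the culture and the animal. No chromosome passed the test. The means of the 5 CTC samples were compared with the culture mean by limma, which assumes that the lone culture sample varies as CTC samples do. Of 20 chromosomes 0 passed 5% after Benjamini-Hochberg adjustment (0%, smallest adjusted p 0.79), and 0 had an unadjusted p under 0.05. The same fit for WBC of the 5 samples against naive WBC also called 0 of 20. An exact permutation of 5 samples against 1 has only 6 arrangements, too few to reach p = 0.05, so none was run. The median size of the difference over the 20 chromosomes was 0.040 between CTC and culture and 0.0083 between the 2 sets of WBC.

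**Figure D1:**
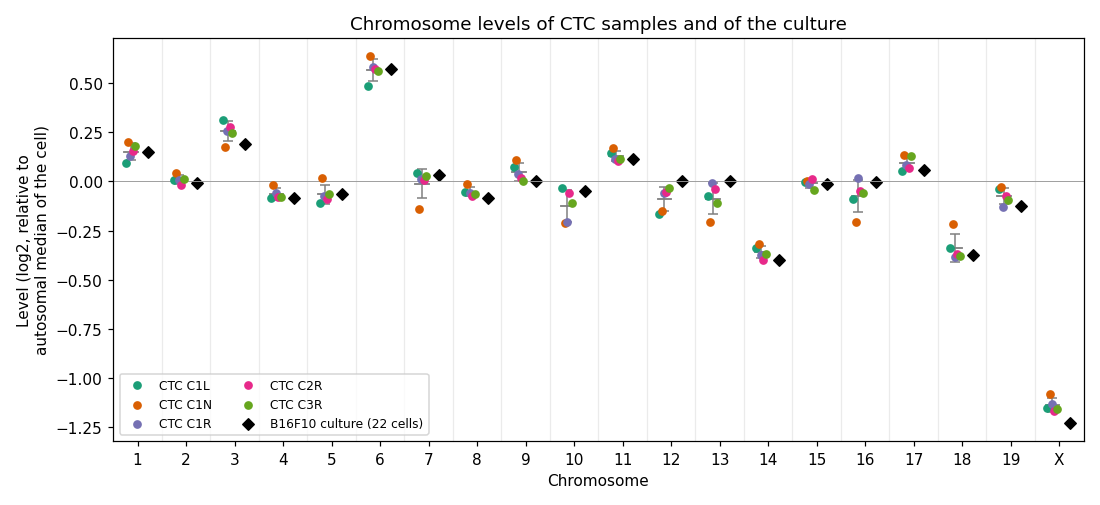
Mean level of each chromosome (log2, relative to the autosomal median of the cell) in the 5 CTC samples (coloured points) and in the culture (black diamonds). Grey bars give the mean and SD of the 5 CTC samples. The culture lies within or close to the CTC samples on all chromosomes. On this centring C1N stands apart from the other CTC samples on chromosomes 7 and 18.

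The X chromosome had the largest positive difference. It stood at -1.15, -1.08, -1.13, -1.17 and -1.16 in CTC of C1L, C1N, C1R, C2R and C3R, against -1.23 in the culture. All 5 CTC samples were above the culture, by 0.088 on average (SE 0.049, limma adjusted p = 0.79). Another sample at the coverage level of the line, the PltLike control cells (24 cells, a class whose name the labels do not explain), stood at -1.14. Chromosomes 3 and 19 followed. Chromosome 3 averaged 0.25 ± 0.051 in CTC and 0.19 in the culture, and chromosome 19 averaged -0.073 ± 0.041 in CTC and -0.13 in the culture (SD, n = 5 CTC samples). In both, 4 of 5 CTC samples were above the culture. With medians over cells in place of means the difference of chromosome 3 turned to -0.023.

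The largest negative differences were on chromosomes 12, 13 and 10. Chromosome 12 stood at -0.17, -0.15, -0.058, -0.052 and -0.033 in CTC of C1L, C1N, C1R, C2R and C3R, against -0.00066 in the culture, a difference of -0.091 (SE 0.056, limma adjusted p = 0.79). Chromosome 13 stood at -0.076, -0.21, -0.0077, -0.038 and -0.11 in CTC of the same samples, against -3.4e-05 in the culture, a difference of -0.088 (SE 0.061). All 5 CTC samples were below the culture on both chromosomes. PltLike cells stood at -0.0057 on chromosome 12 and -0.11 on chromosome 13. Chromosome 10 stood at -0.035, -0.21, -0.21, -0.058 and -0.11 in CTC, against -0.049 in the culture, so that C1N and C1R stood apart and C1L was above the culture. The culture lay outside the range of the CTC samples on 5 of 20 chromosomes (25%), namely 8, 12, 13, 14 and X. Naive WBC lay outside that of WBC on 3 of 20.

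At the scale of single bins 0 of 4399 passed 5% by limma (0%, smallest adjusted p 0.98). At an unadjusted p under 0.05 there were 181 bins, 108 higher and 73 lower in CTC. Of the higher ones 31 lay on X, and of the lower ones 21 lay on chromosome 12, 21 on chromosome 13 and 12 on chromosome 7. These 181 are 4.11% of all bins, and their number moved with the setting. It was 306 without C1N, 117 with blood CTC alone, 60 with cells of low noise, 50 with medians over cells and 19 with the host WBC profile taken off. In WBC against naive WBC 0 bins passed, with 57 at an unadjusted p under 0.05. The median SE of a bin was 0.092, so small differences at single bins were not detectable with 5 samples against 1. A fit weighted by number of cells treats cells as independent and gives the 1 culture sample the largest weight. Its counts, given next, are therefore not read as differences. When samples were weighted by their number of cells, 814 bins had an unadjusted p under 0.05 and 19 passed, 7 higher and 12 lower in CTC, with 5 of the higher on X and 5 of the lower on chromosome 12.

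Averaged over samples, 4 runs of at least 10 neighbouring bins differed by at least 0.15 in their running median, against 0 runs in WBC minus naive WBC. On chromosome 12 the CTC were lower from 17742574 to 25438788 (-0.19) and from 103031169 to 109268382 (-0.16). On chromosome 13 they were lower from 56645498 to 61980097 (-0.17), and on X they were higher from 111702875 to 117504544 (0.18). The culture lay outside the range of the CTC samples at 33.3% of all bins. In each of these 4 runs all 5 CTC samples lay on 1 side of the culture, but the runs were chosen by the mean of these same samples. PltLike cells lay on that side too, at -0.88 and 0.12 in the 2 runs of chromosome 12, -0.15 in that of chromosome 13 and -1.56 in that of X, against -0.51, 0.25, 0.13 and -1.80 in the culture. Positions are 1-based and refer to mm10. The first of the 4 runs stood at -0.49 in naive WBC too, and WBC of the 5 samples were lower there than naive WBC by 0.085. Its part in the CTC difference was not tested. The number of runs was 2 without C1N, 7 without C2R and 2 without C3R. No run passed at a limit of 0.2.

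One bin of X is named because it was the only one to pass when a CTC sample was left out, and so was chosen after its values were seen. It spans 87239364 to 87785367 and lies within Il1rapl1, a large gene for a synaptic membrane protein. The bin stood at -2.33, -2.15, -2.48, -2.78 and -2.37 in CTC of C1L, C1N, C1R, C2R and C3R, against -3.02 in the culture and -2.06 in PltLike cells. Naive WBC stood at -0.014. All 5 CTC samples were above the culture, by 0.60 (SE 0.14, limma unadjusted p = 0.00023, adjusted p = 0.98). The difference was 0.61 without C1R and 0.69 without C2R. The SD of the 5 CTC samples at this bin was 0.23. limma shares the spread over all bins, so its SE and p-values do not measure the spread at this bin alone. The deposited signal there was 0.18 to 0.90 in CTC with a median of 0.56, and 0.24 to 0.56 in culture cells with a median of 0.37, so the ranges of single cells overlapped. The neighbouring bin on its left differed by 0.011 and the one on its right by 0.11. At such low signals the pseudocount weighs on the difference.

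A chromosome of a cell was called departing when its level lay at least 0.2 from the median of the cell's own class. Of 43 CTC 32 had at least 1 departing chromosome (74.4%, exact Clopper-Pearson 95% interval 58.8 to 86.5%), and of 22 culture cells 14 did (63.6%, 40.7 to 82.8%). These intervals cover only counting error, and treat cells as independent although those of 1 sample share their source. In WBC of the 5 samples 4 of 44 cells departed, and 0 of 21 naive WBC did. A count of 0 of 21 allows a share of up to 14.3% by the limit of 3 cells of the total, or 16.1% by the exact interval. CTC had 44 lower and 13 higher departures, and the culture had 16 lower and 15 higher. Of the 44 lower ones 18 were in 4 cells of C1N that shared a set of lower chromosomes, and CTC without C1N had 26 lower and 10 higher. The order of the shares turned with the setting. With a limit of 0.3, 10 of 43 CTC (23.3%) and 10 of 22 culture cells (45.5%) departed, with mean levels of bins 25 of 43 CTC (58.1%) and 14 of 22 culture cells (63.6%) did, and CTC without C1R were at 60.7%. The share also differed between CTC samples, from 8 of 14 in C2R to 6 of 6 in C1N.

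**Figure D2:**
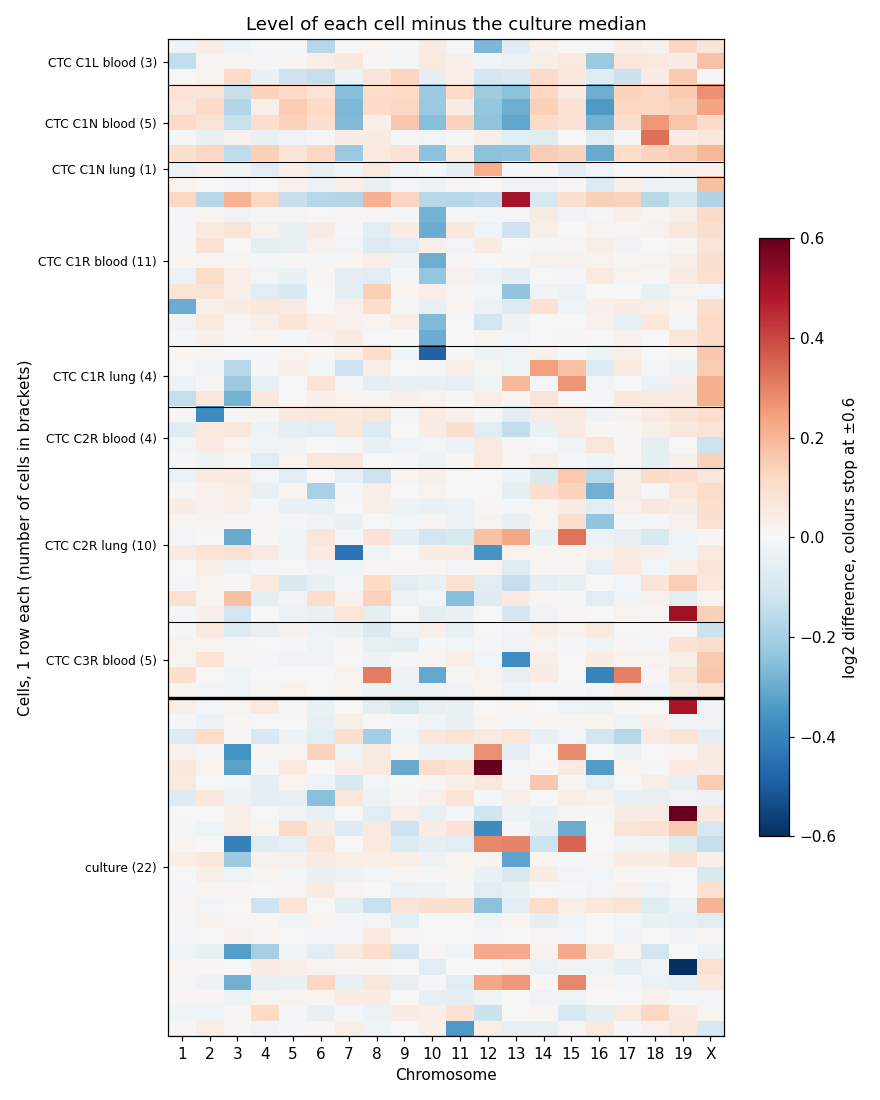
Level of each chromosome in each cell minus the culture median (log2, colour scale stops at ±0.6), with CTC above and culture cells below the thick line. Rows of like colour within C1N blood (chromosomes 7, 10, 12, 13 and 16) and C1R blood (chromosome 10) mark cells that share lower chromosomes, and the culture has rows with a lower chromosome 3 and higher 12, 13 and 15.

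In C1N, 4 of the 5 blood CTC shared a lower level of 5 chromosomes, 7, 10, 12, 13 and 16, each at least 0.2 below the culture median. None of the other 39 CTC and 0 of 22 culture cells had this set. In the 4 cells chromosome 7 lay between -0.24 and -0.20, chromosome 10 between -0.30 and -0.27, and chromosome 12 between -0.28 and -0.25. Chromosome 13 lay between -0.33 and -0.26 and chromosome 16 between -0.33 and -0.27. The remaining blood cell and the lung cell of C1N did not share the set. In deposited units chromosome 16 was 2.88 to 2.92 in the 4 cells, against a median of 3.66 in the other CTC and 3.71 in the culture.

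The longest run of bins at least 0.15 below the culture did not always cover the whole chromosome in these cells. Along a running median of 21 bins, chromosome 16 was lower over all of its 168 bins in each of the 4 cells. On chromosome 12 this run reached the end at 120129022 from a start between 56399887 and 59732880. The part of chromosome 12 up to 42075130 was lower too, at -0.20 to -0.17 against the culture median in the 4 cells. The part from there to 80905376 stood at -0.18 to -0.13. Chromosome 13 was lower to its end from a start between 29629942 and 30698410 in 3 cells and from 64706305 in the other. The same cells stood higher than the culture on other chromosomes, with X at -1.12 to -0.96 and chromosome 18 at -0.26 to -0.12. Because a cell is centred on its own autosomal median, 5 lower chromosomes raise the relative level of the rest. Centred instead on chromosomes 1, 2, 4, 5, 8, 9 and 11, a choice made after the data were seen, chromosome 10 of these cells lay between -0.43 and -0.38 and X between -1.24 and -1.07. Their chromosome 18 lay between -0.37 and -0.24 on that centring. The same 4 cells and no others had the set of 5 on that centring. Their chromosome 3 then lay 0.24 to 0.27 below the culture median, past the limit, whereas on the autosomal centring it lay 0.13 to 0.18 below.

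Chromosome 10 was at least 0.2 below the culture median in 12 of 43 CTC (27.9%, exact 95% interval 15.3 to 43.7%). It was so in 0 of 22 culture cells, which allows up to 13.6% (3 cells of the total) or 15.4% (exact upper limit). Besides the 4 cells of C1N the 12 were 7 of the 15 CTC of C1R and 1 of the 5 CTC of C3R. It was lower in 0 of 3 CTC of C1L and 0 of 14 CTC of C2R. Counted from the median of all CTC instead, 10 CTC had a lower chromosome 10, namely 2 of C1N, 7 of C1R and 1 of C3R. The 12 cells lay between 0.22 and 0.49 below the culture median, and the next cell, also of C1R, lay 0.17 below it. In the 7 cells of C1R no other autosome departed from the culture median. Their deposited signal on chromosome 10 was 2.50 to 3.02, against 3.23 to 3.64 in the other 8 CTC of C1R. DP cells, a further class sorted from the same animals, had a lower chromosome 10 in 7 of 15 cells of C1R and 1 of 6 cells of C1N, counting the DP cells at the coverage level of the line. In such DP cells of all other samples, among them P1, P2 and P4, which held DP cells alone, it was 5 of 198.

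**Figure D3:**
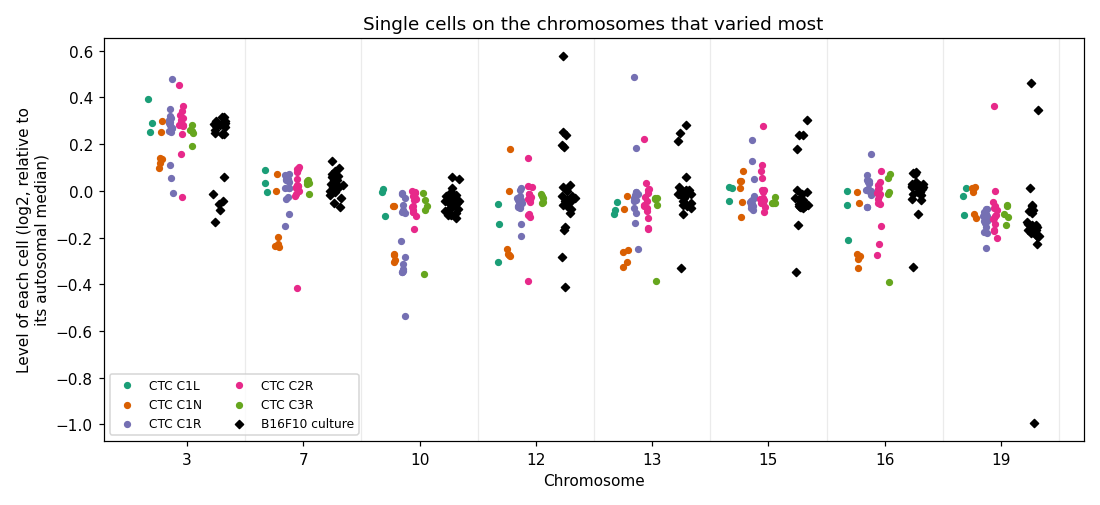
Level of single cells (log2, relative to the autosomal median of the cell) on 8 chromosomes, with CTC coloured by sample on the left and culture cells as black diamonds on the right of each column. On chromosome 10 cells of C1N and C1R form a lower group that the culture lacks, while on chromosomes 3, 12 and 19 the culture holds cells far from its bulk.

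The lower part of chromosome 10 ended at nearly the same place in 11 of the 12 cells. It ran from the start of the chromosome to between 89.1 and 93.9 Mb, or 67.4 to 71.6% of its 218 bins, in all 4 cells of C1N, 6 of C1R and the 1 of C3R. The C1R lung cell was the exception and was lower over all 218 bins. In the culture the final part of the chromosome, from 88602352 on, already stood at -0.38, against 0.010 in the part up to 45248754 and 0.065 in the part between (medians over 22 cells, each part holding equal numbers of bins). Naive WBC had -0.0024 in the final part. In the 8 cells with a lower chromosome 10 outside the set of C1N, the first part lay 0.36 and the middle part 0.37 below the culture median, and the final part lay 0.038 above it (medians). The running median of 21 bins blurs an end by some bins, so a common end is given only to that precision.

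**Figure D4:**
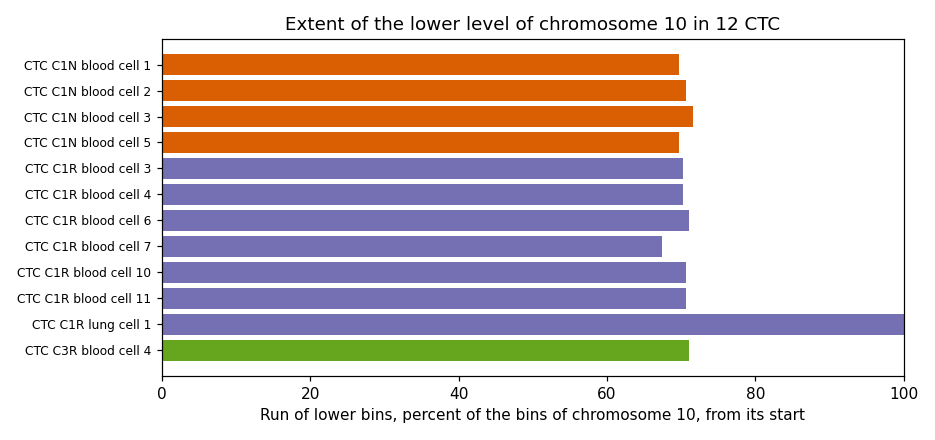
Length of the longest run of lower bins on chromosome 10 in the 12 CTC that carry it, as a percentage of the 218 bins counted from the start of the chromosome (orange C1N, purple C1R, green C3R). The run covers 67.4 to 71.6% of the bins in 11 cells and 100% in 1 lung cell of C1R.

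Genes of the lists fell on both sides of that end. Stk11, a kinase that restrains growth when energy is short, starts at 80115767 of chromosome 10, within the lower part. Its bin had a median of -0.41 in the 12 cells with a lower chromosome 10, -0.20 in the other 31 CTC and -0.26 in the culture. Beyond the end lie Mdm2, which restrains p53, at -0.40 in the 12 cells, -0.46 in the other CTC and -0.47 in the culture, and the cell-cycle kinase Cdk4 at -0.26, -0.30 and -0.42 in the same groups. Tyr, the first enzyme of melanin synthesis, on chromosome 7, had a median of -0.11 in the 4 cells of C1N and 0.19 in the culture. Akt1, a kinase of growth signalling on chromosome 12, had 0.14 in the 4 cells and 0.51 in the culture. Single bins of single cells are noisy, and the ranges of the 4 cells and the culture did not overlap at 3 of the 12 listed genes on these 5 chromosomes, against 12.3% of the 1037 bins of these chromosomes and 3.91% of all 4399 bins (1.31% of the 3362 on other chromosomes). The chromosomes were chosen because the 4 cells are lower there, so nothing is read from these shares. These were the RAS gene Hras on chromosome 7 (-0.60 to -0.44 in the 4 cells, -0.40 to -0.13 in the culture), Akt1 (0.025 to 0.25 and 0.37 to 1.16) and Igf1r, a growth factor receptor gene on chromosome 7 (-0.180 to -0.114 and -0.105 to 0.316).

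Other departures were seen in 1 or a few CTC each. Chromosome 16 was lower in 8 of 43 CTC and in 1 of 22 culture cells, and outside the 4 cells of C1N these were 1 cell of C1L, 2 of C2R and 1 of C3R. In the 2 lung cells of C2R only the part from 42224919 or 43312794 to the end was lower. A lower 16 was also found in 34 of 219 DP cells at the coverage level of the line and in 2 of 24 PltLike cells. Chromosome 7 was lower in 5 CTC and 0 culture cells, the fifth being a lung cell of C2R with chromosome 7 at -0.42 and chromosome 12 at -0.39. It was lower in 12 of the 219 DP cells and 2 of the 24 PltLike cells too. A blood cell of C3R had chromosome 8 at 0.22, 10 at -0.36, 16 at -0.39 and 17 at 0.36. A blood cell of C1R had chromosome 13 at 0.49, and a blood cell of C2R had chromosome 2 at -0.39. Culture cells departed too, such as 1 with chromosome 11 at -0.22. Another had chromosome 9 at -0.27 along with 3 at -0.045, 12 at 0.58 and 16 at -0.32.

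Sets of chromosomes shared by cells were seen in the culture too. In 6 of 22 culture cells (27.3%, 10.7 to 50.2%) chromosome 3 was lower, and in 5 of these chromosome 12 was higher. In 4 of the 6 cells both chromosomes 12 and 15 were higher, and in 3 of them chromosome 13 too. These sets were not particular to the culture. Of 24 PltLike cells 3 had a lower chromosome 3, and 2 had it with higher 12, 13 and 15. Of 219 DP cells at the coverage level of the line 14 had a lower chromosome 3. It came with higher 15 in 2 of these DP cells and with higher 12 in 0. Of the 43 CTC 3 had a lower chromosome 3 (7.0%, 1.5 to 19.1%), all from lung. That count depends on the centring: on chromosomes 1, 2, 4, 5, 8, 9 and 11 it was 6 CTC, the 4 blood cells of C1N and 2 lung cells, while the culture stayed at 6 of 22. The pair of lower 3 and higher 12 was found in 0 of 43 CTC, which allows up to 7.0% (3 cells of the total) or 8.2% (exact upper limit), and in 5 of 22 culture cells, on either centring. Lower 3 with higher 15 was found in 2 CTC, 1 lung cell of C1R and 1 of C2R, and in 1 CTC on the other centring. The C2R lung cell had chromosome 3 at -0.027, 12 at 0.14, 13 at 0.22 and 15 at 0.28, close to a culture cell with -0.015, 0.20, 0.25 and 0.24.

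Chromosome 15 carries Myc, a transcription factor that drives growth. Its bin had a median of 0.38 in the 2 CTC with lower 3 and higher 15, 0.55 in the 4 culture cells and 0.19 in the other 18 culture cells. Pik3ca, a lipid kinase gene on chromosome 3, had 0.064 in the 2 CTC, 0.0086 in the 4 culture cells and 0.45 in the other 18. Chromosome 19 was lower in 1 culture cell, at -0.99, and higher in 2, at 0.35 and 0.46. It was higher in 1 of 43 CTC, a lung cell of C2R at 0.36.

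The spread between cells had a similar median on both sides, and the chromosomes with the largest spread were not the same ones. The median over 20 chromosomes of the SD between cells was 0.061 in C1L, 0.077 in C1N, 0.060 in C1R, 0.077 in C2R and 0.033 in C3R, with a mean of 0.062 ± 0.018 (SD, n = 5 CTC samples). It was 0.075 in the culture, inside that range. The CTC SD pooled within samples had a median of 0.080 over the 20 chromosomes, above that of the culture. Pooled within samples, the CTC spread exceeded that of the culture on 12 of 20 chromosomes and was smaller on 8. It was largest in CTC on chromosome 13 (0.13 in CTC, 0.13 in the culture), 10 (0.12 and 0.048) and 16 (0.11 and 0.082). In the culture it was largest on chromosome 19 (0.089 in CTC, 0.26 in the culture), 12 (0.11 and 0.20) and 3 (0.10 and 0.15). Chromosome 10 had the highest ratio of CTC over culture, 2.51, and chromosome 19 the lowest, 0.35. The value of chromosome 19 in the culture rests on the 3 cells named above: a spread from the median absolute deviation was 0.051 in CTC and 0.070 in the culture. Cells of WBC had a median SD of 0.047 within the 5 samples and 0.035 in naive mice. No test was made, since the culture is 1 sample.

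**Figure D5:**
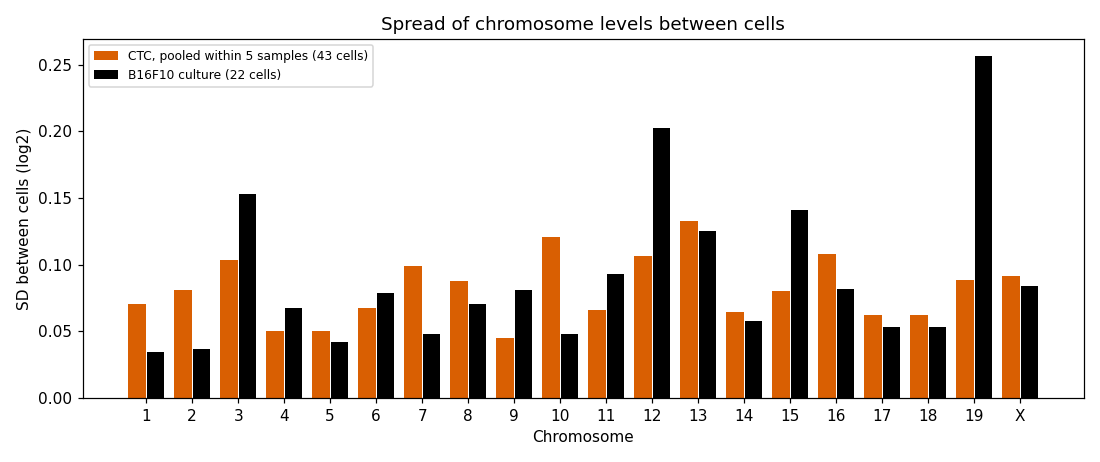
Standard deviation between cells of each chromosome's level (log2), for CTC pooled within their 5 samples (orange) and for the culture (black). CTC exceed the culture most on chromosome 10 (0.12 and 0.048), and the culture exceeds CTC most on chromosome 19 (0.089 and 0.26).

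Distances between cells were also set side by side. The mean absolute difference over 20 chromosomes had a median of 0.073 between CTC of the same sample, 0.079 between CTC of different samples and 0.090 between culture cells. Between a CTC and a culture cell it was 0.087. By sample, the distance of CTC to the culture was 0.15 in C1N and 0.081 to 0.086 in the other 4 samples. C1N CTC thus stood farther from the culture than culture cells did from each other, but pairs of CTC within C1N were also 0.15 apart. The distances use the autosomal centring. On it the lower chromosomes shared by 4 of the 6 C1N cells raise the other levels of those cells. Pairs share cells, so no test was made.

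Lung and blood CTC could be compared in 2 samples with at least 2 cells of each. In C1R chromosome 3 stood at 0.10 ± 0.12 in 4 lung cells and 0.31 ± 0.063 in 11 blood cells (SD over cells), and X stood at -1.05 ± 0.031 in lung and -1.16 ± 0.096 in blood. In C2R chromosome 3 stood at 0.27 ± 0.13 in 10 lung cells and 0.30 ± 0.029 in 4 blood cells, and X at -1.16 ± 0.041 in lung and -1.18 ± 0.12 in blood. The sign of lung minus blood was the same in both samples on 10 of 20 chromosomes, and 0 chromosomes differed by 0.1 or more in 1 direction in both. The lower chromosome 10 was found in 1 of 15 lung CTC and 11 of 28 blood CTC, and the lung cells came mostly from C2R, where it was not seen in either tissue.

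At genes of 5 lists (adhesion and invasion, spindle and genome maintenance, cell cycle and tumor suppressors, growth signalling, melanocyte lineage) no bin passed the test. Of 75 genes 72 had a kept bin at their midpoint, and 0 of 72 passed 5% by limma, as 0 of all bins did, with 6 at an unadjusted p under 0.05. Since Cdkn2a and Cdkn2b share a bin, these are 5 of 71 different bins (7.04%), against 4.11% of all bins. CTC were above the culture at 54 of 72 genes and at 2456 of 4399 bins. The median difference was 0.056 over the 72 genes and 0.014 over all bins. By list it was 0.10 for the melanocyte lineage, 0.077 for spindle and genome maintenance, 0.073 for cell cycle and tumor suppressors, 0.037 for adhesion and invasion and 0.013 for growth signalling. The culture lay outside the range of the CTC samples at 31 of 72 genes (43.1%), against 33.3% of all bins.

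The genes with the largest positive differences were Stag2 (0.24), a cohesin subunit on X, Pmel (0.21), a structural protein of the melanosome on chromosome 10, Smc1a (0.20), another cohesin subunit on X, and Cdkn2a with Cdkn2b (0.19), inhibitors of cell-cycle kinases that share 1 bin on chromosome 4. Pmel averaged -0.23 ± 0.047 in CTC (SD, n = 5 samples) and -0.43 in the culture, and all 5 CTC samples were above the culture (SE 0.087, limma adjusted p = 0.98). The bin of Cdkn2a spans 88993196 to 89569809. It stood at 0.024, -0.14, 0.032, -0.11 and 0.059 in CTC of C1L, C1N, C1R, C2R and C3R, against -0.22 in the culture. The largest negative differences were at Kit (-0.14), a receptor tyrosine kinase of melanoblasts on chromosome 5, Akt1 (-0.097), Ccnd1 (-0.086), the cyclin D1 gene on chromosome 7, Mdm4 (-0.075), a partner of Mdm2 on chromosome 1, and Tsc1 (-0.073), a brake on mTOR signalling on chromosome 2. Kit averaged -0.016 ± 0.068 in CTC and 0.13 in the culture, with all 5 CTC samples below the culture (SE 0.090, limma adjusted p = 0.98).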

How the data were processed

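Single cells had been amplified by MALBAC and sequenced as DNA, per the labels' protocols. The submitters' processing notes name the mm10 build and the tools featureCounts, HISAT2, SAMtools, Picard, BWA and Trim Galore, without their settings. The deposited coverage table holds a normalised signal per cell and bin that the authors computed, and how it was normalised is not given in the sources used here. The values go up to 10, where 2.73% of those of CTC, culture and WBC cells lie, and bins at this ceiling in at least 1% of CTC, culture and WBC cells were left out, a choice made after values were seen. The rest was transformed to log2(signal + 0.1) and centred on each cell's autosomal median. A chromosome's level is the median of its bins, and CTC of 1 sample were averaged. Sample means were fitted with limma (lmFit, eBayes) and adjusted by Benjamini-Hochberg at 5% over all bins or all 20 chromosomes. The fit was tried on simulated bins, with 200 of 4399 changed. It recovered 0% of changes of 0.2 log2, 78.5% of those of 0.5 and 99.5% of those of 1. With 200 bins changed at once the adjustment is easier to pass than with a few, so the recovery of a lone changed bin was not measured. The X bin named above differed by 0.60 and was not called. A count of 0 bins therefore does not speak to differences of 0.2 or less, nor to larger ones at a few bins. The p-values measure the spread between CTC samples only. Versions were limma 3.58.1 in R 4.3.3, and scipy 1.17.1, pandas 2.3.3, numpy 2.4.6 and matplotlib 3.10.9 in Python 3.11.15. No pair of CTC or culture cells shared all values.

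The classes came from the deposited cell table. The groups, gene lists and limits were chosen with earlier results of these data known. Chromosomes named were those past 5%, the 3 per direction with the largest difference and the 3 with the largest spread on either side. Genes named were list members past 5% and the 5 per direction with the largest difference, by the bin over the gene's midpoint in the RefSeq annotation of GRCm38.p6. Other genes, the X bin and the sets of chromosomes shared by cells were singled out after values were seen. Alternatives covered the pseudocount, ceiling bins, centring, averaging, host profile, tissue, noise, limits and each CTC sample left out. The 3 listed genes without a kept bin were not analysed here.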

Additional observations from a re-analysis of the deposited data

Results flagged for a closer look

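Of 23 sets of 5 CTC sample values examined (20 chromosome levels, the spread, the share of departing cells and the noise), 2 held a sample whose gap to the others exceeded Dixon's 95% critical value of 0.71, and chance flags about 1 in 20 such sets. Both were C1N. The chromosome 7 level of C1N CTC was -0.14, against 0.0045 to 0.041 in the other 4 samples, a gap of 0.80 of the range. The chromosome 18 level of C1N CTC was -0.22, against -0.39 to -0.34 in the other 4, a gap of 0.71 of the range. The 4 blood cells of C1N with the shared set lay between -0.26 and -0.12 on chromosome 18, and the fifth blood cell lay at -0.049. The level of these 4 cells depends on the centring. Centred on chromosomes 1, 2, 4, 5, 8, 9 and 11, they lay between -0.37 and -0.24 and the fifth blood cell at -0.038.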

How the results depend on the processing

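No paired analysis was possible because the culture is 1 sample and the labels give no replicate numbers. The count of chromosomes past 5% was 0 under all 17 alternatives for CTC and all 7 for WBC. The count of bins stayed at 0 under 13 of 16 alternatives, was 0 to 1 when a CTC sample was left out and was 19 with samples weighted by number of cells. The bin count in WBC was 0 to 2 with a sample left out, and without C1R the 2 bins were neighbours on chromosome 5. The 4 runs of bins became 1 with a pseudocount of 0.5, 2 with medians over cells, 2 with the host profile taken off and 2 to 7 with a sample left out. They became 15 at a limit of 0.1, and 0 at 0.2, at 0.3 and with at least 20 bins. The share of CTC with a departing chromosome was 74.4%. It was 58.1% with mean levels (63.6% in the culture), 23.3% at a limit of 0.3 (45.5% in the culture), 48.8% from the median of the own sample, and 60.7 to 79.3% with a sample left out. The median spread was 0.058 to 0.069 in CTC with a sample left out. Over cells of low noise it was 0.046 in 24 CTC and 0.038 in 8 culture cells, against 0.062 and 0.075 over all cells, so the order turned. The order also turned with the SD pooled within samples, at 0.080 in CTC. The number of CTC with a lower chromosome 3 was 3, and 6 when centred on chromosomes 1, 2, 4, 5, 8, 9 and 11, and with lower 3 and higher 15 it was 2 and 1. The causes of these shifts were not tested. Precision is limited by the single culture sample, by 3 to 15 CTC per sample and by an unknown depth.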
